A study of Homo sapiens with 11 samples.

Results

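The genes encoding the subunits of the proteasome, together with NFE2L1, were followed through maps of the transcription factors MYRF and FOS and of histone H3 acetylated at lysine 27 (H3K27ac, a mark of active promoters and enhancers) in pancreatic cancer cell lines. The set held 38 of 20037 protein-coding genes of the autosomes, X and Y, chosen by name: 7 alpha and 7 beta subunits of the core particle, 3 inducible beta subunits of the immunoproteasome, 6 ATPases and 11 other subunits of the regulatory particle, 3 subunits of the PA28 activators, and NFE2L1. For each gene, peaks were taken whose summit lay in the gene span extended 10 kb to each side (the gene window). All 38 had an H3K27ac summit in that window in both control clone lists, and the 15277 other protein-coding genes for which this held were the background. The members were spread over 13 chromosomes, with 8 on chromosome 17 and 7 on chromosome 14.

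The proteasome is a barrel of alpha and beta rings that degrades ubiquitin-tagged proteins, and the regulatory particle on its ends binds, unfolds and feeds in the substrate. Proteins that misfold in the endoplasmic reticulum (ER) are moved to the cytosol and end there. NFE2L1 is a transcription factor made as an ER membrane protein. When the proteasome is short of capacity, it is released, cut by the protease DDI2, and binds antioxidant response elements with a small MAF partner to switch on proteasome genes. MYRF is likewise made as a membrane protein of the ER that frees its DNA-binding part by cleaving itself, and the study title ties it to ER homeostasis.

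Chromatin immunoprecipitation and sequencing gave 10 peak lists, 2 for each of 5 groups. MYRF was mapped in the original CFPAC1 and HPAF2 cells, both lines of human pancreatic ductal adenocarcinoma, with an antibody made by the submitters. FOS, a subunit of the AP-1 factor, and H3K27ac were mapped in a control clone of CFPAC1, grown out by dilution after infection with the lentiCRISPR v2 vector, and H3K27ac also in a MYRF knockout clone, which received the same vector with wild-type Cas9 and a guide against MYRF. The control and the knockout are 1 clone each, so the clone and the loss of MYRF cannot be told apart. CFPAC1 cells and both clones grew in IMDM and HPAF2 cells in RPMI, each with fetal bovine serum. FOS and control H3K27ac libraries carry the same description of their clone. Nothing in the labels tells if the replicates came from different cultures, so spread and p-values measure only these samples and may be technical.

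The lists held 3702 to 4743 MYRF peaks, 29087 and 36349 FOS peaks and 107586 to 116466 H3K27ac peaks, without read counts, so the depth is unknown. H3K27ac peaks covered 100.55 and 95.2 Mb in the control clone and 87.88 and 92.95 Mb in the knockout clone. Of 7 epithelial marker genes, 4 were marked by H3K27ac near a gene end, at most 1 kb away, in all 4 lists (KRT8, KRT18, EPCAM, MUC1). KRT7 was so marked in 3 lists, CDH1 in 1 and KRT19 in none. Of 11 leukocyte, endothelial, fibroblast and neural markers, 3 were so marked in all 4 lists (CD3E, COL1A1, GFAP) and 6 had none in any list. Over these 11 genes the covered length in the gene window ran from 0 to 15590 bp, and its part in the results was not tested. H3K27ac at MYRF itself is no check of the edit, which these lists do not show.

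Sequences before the gene start are shown for the members on which the peak results turn. RefSeq (GRCh38.p14) listed a start for 33 of the 38, in 41 promoter windows of 300 bases, 250 before the start and 50 from it on, here read 5′ to 3′ on the strand of the gene. PSMB5, the chymotrypsin-like catalytic subunit, had a MYRF peak on this window. PSMC5, a regulatory ATPase, had a FOS peak on its window.
PSMB5, chr14:23034851-23035150, minus strand: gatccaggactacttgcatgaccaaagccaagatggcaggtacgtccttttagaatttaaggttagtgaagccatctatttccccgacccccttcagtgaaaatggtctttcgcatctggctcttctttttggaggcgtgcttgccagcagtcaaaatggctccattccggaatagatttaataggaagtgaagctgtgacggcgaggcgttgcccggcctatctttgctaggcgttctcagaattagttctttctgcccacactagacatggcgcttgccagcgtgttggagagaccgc
PSMC5, chr17:63827471-63827770, plus strand: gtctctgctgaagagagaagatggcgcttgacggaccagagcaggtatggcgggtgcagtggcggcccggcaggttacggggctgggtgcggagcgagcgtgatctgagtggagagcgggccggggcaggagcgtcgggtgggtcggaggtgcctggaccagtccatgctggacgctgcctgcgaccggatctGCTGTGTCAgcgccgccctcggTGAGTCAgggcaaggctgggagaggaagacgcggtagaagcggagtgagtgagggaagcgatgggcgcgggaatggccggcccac

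Capitals mark matches, on either strand, to the core of the antioxidant response element (TGACNNNGC), the AP-1 element (TGANTCA) or the MYRF motif (CTGGNAC). The PSMB5 window held none of these letters. In PSMC5 the capitals are an antioxidant response core and, downstream of it, an AP-1 element. The other listed PSMC5 window, chr17:63827181-63827480, held none of these letters. The PSMC5 core was covered by a FOS peak in both lists, and the AP-1 element lay 129 bp from the nearer FOS summit.

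Promoters of PSMD3, a scaffold subunit of the regulatory particle, and PSMB3, a structural beta subunit, are shown because they carry the core of the element that NFE2L1 binds, and neither had a FOS or MYRF peak in both lists.
PSMD3, chr17:39980557-39980856, plus strand: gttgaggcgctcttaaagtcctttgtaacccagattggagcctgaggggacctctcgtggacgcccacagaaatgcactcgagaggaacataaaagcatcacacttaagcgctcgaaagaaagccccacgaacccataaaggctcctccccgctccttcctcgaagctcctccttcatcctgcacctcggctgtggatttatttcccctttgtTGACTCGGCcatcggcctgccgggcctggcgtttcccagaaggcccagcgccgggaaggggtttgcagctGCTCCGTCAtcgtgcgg
PSMB3, chr17:38752491-38752790, plus strand: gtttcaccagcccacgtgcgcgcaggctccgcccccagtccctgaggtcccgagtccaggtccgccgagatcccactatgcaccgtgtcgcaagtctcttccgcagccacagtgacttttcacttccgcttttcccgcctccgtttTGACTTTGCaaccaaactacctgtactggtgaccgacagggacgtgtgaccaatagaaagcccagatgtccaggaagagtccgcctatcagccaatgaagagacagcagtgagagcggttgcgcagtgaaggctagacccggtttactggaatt

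The antioxidant response core occurred in 10 of 33 members with a listed promoter: PSMA4, PSMB3, PSMB9, PSMC4, PSMC5, PSMD1, PSMD3, PSMD12, PSME1 and PSME2. Counted by promoter window, that was 10 of 41, or 24.4%, against 13.3% of all 34943 windows in the table. PSMD3 was the 1 member with 2 matches. The core overlapped a FOS peak of both lists in PSMB9 and PSMC5 alone among the 10. AP-1 elements occurred in 2 windows (PSMC5 and PSMD2), 4.88% against 7.72% of all windows, and MYRF motifs in 6, 14.6% against 18.5%. The ETS core (CCGGAAG) occurred in 10 windows, 24.4% against 10.2%. All windows include those of non-coding genes. Among the 22049 windows of protein-coding genes the antioxidant response core had 13.8% and the AP-1 element 6.16%. The MYRF motif had 18.5% there and the ETS core 12.8%. These matches describe letters, and were not tested.

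The NFE2L1 promoter is shown for its CCAAT boxes. In the next sequence capitals mark the CCAAT box, the element of the factor NF-Y, on either strand.
NFE2L1, chr17:48048109-48048408, plus strand: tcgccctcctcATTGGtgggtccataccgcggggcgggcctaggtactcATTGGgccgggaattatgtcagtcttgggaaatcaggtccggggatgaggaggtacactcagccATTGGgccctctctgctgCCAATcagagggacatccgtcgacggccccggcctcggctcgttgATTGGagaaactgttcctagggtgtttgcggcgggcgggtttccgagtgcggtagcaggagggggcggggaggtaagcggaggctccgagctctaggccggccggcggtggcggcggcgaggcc

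It held 5 CCAAT boxes and none of the 3 motifs above. Those 3 were missing in 17 of the 33 members, NFE2L1 included. The share of all windows without them was not counted, so nothing is read from this. The other listed NFE2L1 window, chr17:48048531-48048830, held no CCAAT box. At least 5 boxes were found in 126 of the 34943 windows, or 0.361%, and no other member had more than 2 in a window. At least 1 box was present in 43.9% of member windows and 34.6% of all windows.

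MYRF peaks found in both replicates lay near few proteasome genes, and near few other genes of short span. In CFPAC1, 2 of 38 members (5.26%) had a MYRF peak in both replicates, PSMB5 and PSMD1, where 10.8% of the other genes had one. In HPAF2 it was 1 of 38 (2.63%), PSMC6, where 10.2% of the others had one. No member had a MYRF peak in both lines, compared with 909 of the 15277 other genes. Most members are short, with a median span of 12966 bp against 29791 bp. Among other genes no longer than the median member the shares were 7.37% in CFPAC1 and 6.64% in HPAF2. Of the 19 members up to that length, 1 (5.26%) had one in CFPAC1 and 0 in HPAF2. These shares were not tested against each other. Counting a peak in either list, the order in CFPAC1 was the opposite, with 11 members (28.9%) against 19.9% of other genes. In HPAF2 it was 2 members (5.26%) against 18.0%.

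The PSMB5 peak was the sole MYRF peak on a proteasome promoter that both lists of a line shared. It lay at chr14:23034704-23035265 in replicate 1 and chr14:23034703-23035195 in replicate 2 (GRCh38, counted from 1). Fold enrichment over the authors' background estimate was 5.42 and 6.42, percentiles 56.9 and 69.5 of their own lists. Both peaks spanned the whole window printed above, with summits at -156 and -21 bp from its start, and HPAF2 had no MYRF peak in the gene window. FOS had a peak there in 1 list only, replicate 2, with a fold of 3.53 (percentile 10.6). The site lay inside an H3K27ac peak in all 4 lists, at percentiles of 99.9 and 97.0 in the control lists and 100.0 and 97.6 in the knockout lists.

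The other MYRF sites ranked lower in their lists. In PSMD1, the largest subunit of the regulatory particle, the shared peak lay inside the gene, at 27152 and 26914 bp from the start, with folds of 4.35 and 4.64 (percentiles 28.3 and 32.4), and no H3K27ac list had a peak over its summits. The nearest gene end was that of HTR2B, a serotonin receptor gene. Near PSMC6, an ATPase, the HPAF2 peak lay upstream, at -6357 and -6356 bp, with folds of 3.01 and 3.70 (percentiles 1.97 and 9.87). There the nearest gene end belonged to ERO1A, an ER oxidase. FOS had a peak at the same place in the CFPAC1 control clone, with folds of 9.11 and 8.18 (percentiles 85.1 and 78.6 of the FOS lists). Single-list MYRF peaks close to a start were those of PSME3 (CFPAC1 replicate 2, fold 5.14, -150 bp), PSMD7 (HPAF2 replicate 2, 3.79, 120 bp) and NFE2L1 (CFPAC1 replicate 1, 3.18, -549 bp, nearer to COPZ2).

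FOS peaks lay near more of the members, often on their promoters. In the control clone, 17 of 38 members (44.7%) had a FOS peak in both lists, where 53.7% of the other genes did. Among other genes no longer than the median member the share was 38.1%, and among the 19 members up to that length 36.8%. By role, 2 of 7 alpha, 1 of 7 beta, 2 of 3 immunoproteasome, 4 of 6 ATPase, 6 of 11 other regulatory subunits, 1 of 3 activator subunits and NFE2L1 had one. Near the start the order was the opposite, untested. A FOS peak of both lists lay within 1 kb of a listed start in 11 of 33 members (33.3%). The share was 13.0% of 12379 other genes with a listed start. These were not limited to genes with H3K27ac at the start, which 97.0% of members and 76.7% of the others had in all 4 lists. The 11 were the alpha subunits PSMA3 and PSMA5, PSMB9, the ATPases PSMC1 and PSMC5, PSMD2, PSMD7, PSMD11, PSMD12 and PSMD14 of the regulatory particle, and NFE2L1.

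The promoter peaks were of middling strength for their list. In replicate 1, the 13 distinct peaks within 1 kb of a start had folds from 3.15 to 7.69 with a median of 5.20, and a median percentile of 46.9. All 23 distinct FOS peaks in member windows that recurred in replicate 2 had folds from 3.15 to 15.5 with a median of 5.43. Of the 23 summits, 20 lay inside an H3K27ac peak in all 4 lists. PSMA3, an alpha-ring subunit, had 5.69 and 8.26 at 217 and 248 bp from its start. PSMD12, a structural subunit of the regulatory particle, had 6.63 and 8.96 at 316 and 216 bp, and PSMD11, which helps hold core and regulatory particle together, had 7.69 and 8.47 at 348 and 522 bp. PSMC5 had 4.79 and 8.54 at 115 and 129 bp from the start of its other listed window, chr17:63827181-63827480. Both summits lay upstream of the start of the PSMC5 window printed above. The replicate 2 summit was nearest to an end of FTSJ3. All of these peaks lay just downstream of the start they are counted from. NFE2L1 differed in place, with folds of 5.51 and 3.38 (percentiles 52.6 and 8.2) at -970 and -877 bp. These lay upstream and closer to the end of COPZ2, a coatomer gene.

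The strongest FOS site of the set was not at a promoter. It lay inside PSMB7, which carries the trypsin-like activity, at chr9:124392429-124393155, with folds of 15.5 and 18.8 (percentiles 97.3 and 98.3). CFPAC1 MYRF replicate 1 had a peak at the same place (fold 5.02), and replicate 2 did not. Neither control list had an H3K27ac peak over the FOS summits there. The knockout replicate 2 list had one over both summits and knockout replicate 1 over 1 of them. Both summits lay near the end of a region with H3K27ac in all 4 lists, chr9:124389875-124392988. Its folds were 16.7 and 19.7 in the control and 17.4 and 19.2 in the knockout lists, so no gain of the mark is read from this. The FOS peak inside PSMD1 (8.67 and 9.66, 11789 and 11822 bp from the start) had no H3K27ac peak over its summits in any list. A region of all 4 lists, chr2:231067946-231068515, ended inside this FOS peak. A weaker one of the knockout lists alone, chr2:231068936-231069242, began inside it. The immunoproteasome genes PSMB8 and PSMB9 lie side by side on chromosome 6 and share 1 FOS peak, at the PSMB9 start, where the antigen transporter gene TAP1 also starts (6.15 and 6.69). PSMB8 has a further one near TAP2 (5.67 and 7.20). Windows of 35 of the 38 members held part of another gene, so a peak in a window need not belong to the member.

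**Figure D1:**
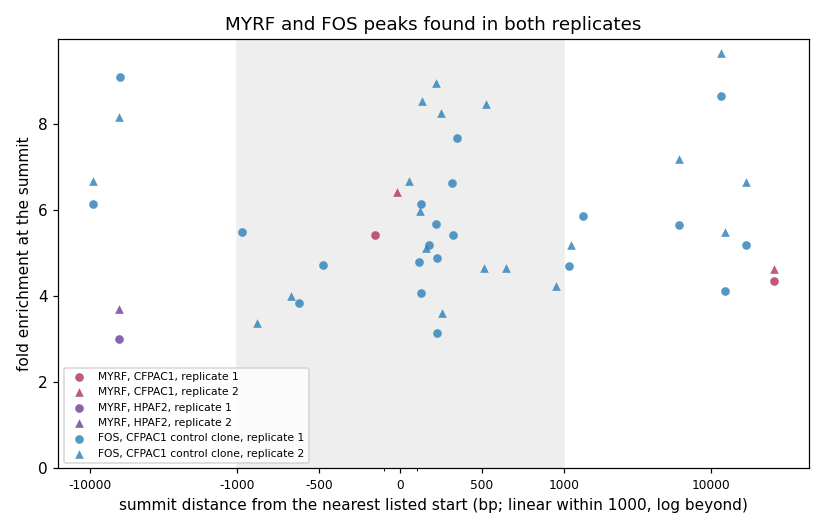
MYRF and FOS peaks found in both lists of a group, plotted by summit distance from the nearest listed start of the member (x axis, bp, linear within 1000 and log beyond) and fold enrichment (y axis). The grey band marks 1 kb to each side, where FOS points gather and the PSMB5 pair (5.42 and 6.42) is the only MYRF pair. Members without a listed start, among them PSMB7, are not drawn.

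Proteasome promoters carried some of the stronger H3K27ac peaks of each list. H3K27ac covered a median of 9.74% and 9.05% of member windows in the control lists and 9.91% and 9.28% in the knockout lists, where other, mostly longer genes had 6.04% to 6.43%. A summit lay within 1 kb of a listed start in all 4 lists for 32 of 33 members (97.0%), against 76.7% of other genes. The exception was PSMB3, which lacked one in knockout replicate 1 alone. By percentile of fold enrichment within a list, the strongest peak at the start had a median over members of 95.5 and 94.0 in the control lists and 95.0 and 94.9 in the knockout lists. The same medians over other genes were 86.7 and 87.0, and 88.5 and 86.2. For the 5 members without a listed start (PSMA7, PSMB1, PSMB6, PSMB7, PSMD4), a peak lay within 1 kb of an end of the gene in every list.

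The highest member was PSMB5 in replicate 1 of both clones (99.9 and 100.0), PSMD12 in control replicate 2 (99.6) and the ATPase PSMC1 in knockout replicate 2 (99.6). PSMC1, PSMC5 and PSMD12 had 98.6 or more in every list. PSMB10, the inducible trypsin-like subunit, had 99.7 and 99.3 in the control lists and 95.6 and 98.5 in the knockout lists. PSMD6, a subunit of the regulatory particle, stood apart at the bottom in every list, with 65.8 and 64.1 in the control and 59.5 and 55.8 in the knockout clone. PSMD7, a partner of the deubiquitinase PSMD14, had 84.5 and 83.8 in the control lists and 94.9 and 98.9 in the knockout lists. For 5 members (PSMA2, PSMB9, PSMC5, PSMD13 and PSME2) another gene starts within 1 kb, so the strongest peak there can lie on the other side. At PSME2, a PA28 subunit, it was nearest to RNF31, and the region inside PSME2 had 69.5 and 72.4 in the control lists and 74.7 and 71.1 in the knockout lists. Percentiles are ranks in lists of different length, and no change is read from them.

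**Figure D2:**
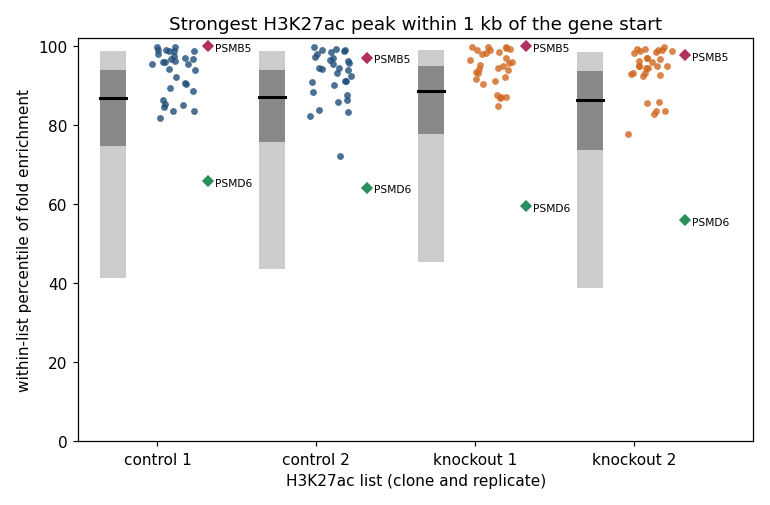
Within-list percentile of the strongest H3K27ac peak within 1 kb of the start (y axis) in each of the 4 lists (x axis). Points are members with a listed start and diamonds PSMB5 and PSMD6. Bars give the other genes, pale from the 5th to the 95th percentile, dark from the 25th to the 75th, with the median as a line. Member medians lie between 94.0 and 95.5, and PSMD6 is the lowest point in each list.

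The knockout clone was then compared with the control clone by the length of DNA under H3K27ac peaks in each gene window, in base pairs, tested as log2(covered length + 100 bp) with limma over all 15315 genes. No gene passed an adjusted p of 0.05, members included (0.0%). Without adjustment, 908 genes (5.93%) and 3 of 38 members had a p under 0.05. The member count was 0 without knockout replicate 1, and 1 without either control replicate or with the span extended 2 kb. The median log2 difference, knockout minus control, was 0.038 over members and -0.059 over other genes. It was above 0 in 20 members (52.6%) and in 38.1% of other genes. Scaling each list to the same total covered length moved these medians to 0.15 and 0.052, and members above 0 to 27 of 38. The share of other genes above 0 after scaling was not counted. Their median was then above 0 too, so the 27 is not to be set against 38.1%. The gap between members and other genes was 0.097 unscaled and 0.098 scaled. Scaling moves all genes by nearly the same amount, so it could hardly change that gap. Without knockout replicate 1 that gap was 0.018 and without control replicate 1 it was 0.136. Among the 19 members no longer than the median member the median difference, unscaled, was -0.09. Among other genes up to that length it was -0.05, so the order there was the opposite.

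Covered lengths of the clones did not overlap, both knockout lists lying on 1 side of both control lists, in 20 members. In 8 (21.1%) the knockout was higher, against 11.0% of all genes, and in 12 (31.6%) lower, against 25.2%. Of the 19 members no longer than the median member, 2 (10.5%) were higher and 9 (47.4%) lower. Other genes up to that length had 10.6% and 23.9%. With lists scaled, the split was 16 higher and 2 lower in members and 22.0% and 11.7% in all genes. With the span extended 2 kb it was 11 and 6 in members and 11.4% and 24.5% in all genes, PSMD2 and PSMD12 then being higher. The 8 were NFE2L1, PSMA2, PSMB1, PSMB4, PSMC1, PSMC4, PSMD11 and PSMD13, and all of them were also higher after scaling. Of the 12, only PSMB5 and PSMC5 were still lower after scaling, and PSMB9 was higher. The immunoproteasome genes PSMB8 and PSMB9 and the activator genes PSME1 and PSME2 are in the 12, and each pair shares its peaks, the windows of PSME1 and PSME2 holding exactly the same ones.

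**Figure D3:**
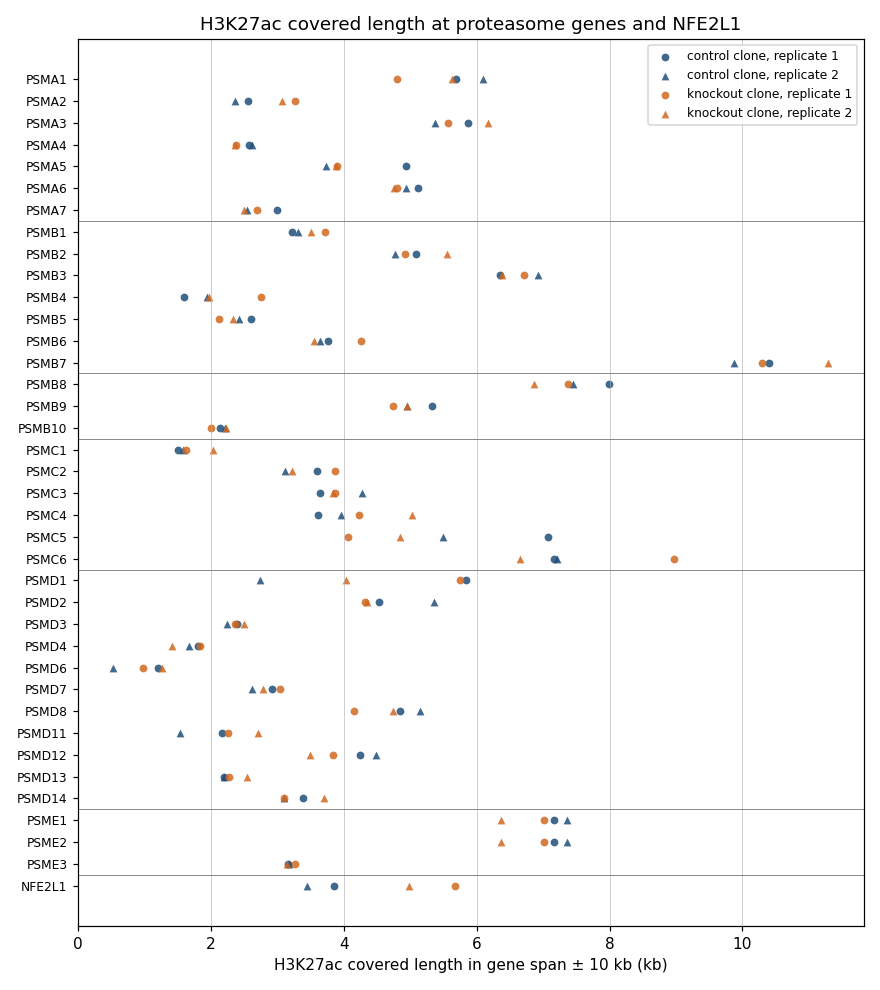
H3K27ac covered length in the window of each member (x axis, kb), with control clone lists in blue and knockout clone lists in orange, circles for replicate 1 and triangles for replicate 2. Lines separate alpha, beta, immunoproteasome, ATPase, other regulatory, activator and transcription factor genes. NFE2L1, in the bottom row, has both knockout points to the right of both control points.

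NFE2L1 had the largest positive difference of the 38. H3K27ac covered 3848 and 3453 bp of its window in the control lists and 5681 and 4979 bp in the knockout lists. Both knockout values lay above both control values, by a log2 difference of 0.53 (SE 0.14, limma unadjusted p = 0.0142, adjusted p = 0.759). A larger positive difference was found in 382 of the 15315 genes, or 2.49%. Under the 13 other settings run it stayed positive, from 0.41 to 0.64. As the clones did not overlap, a changed offset, a replicate block or leaving out 1 list could not turn it. The window of the gene (gene span chr17:48048359-48061545) held 3 and 2 H3K27ac peaks in the control lists and 6 and 4 in the knockout lists. At its start, 1 region present in all 4 lists (chr17:48046340-48050321) had folds of 21.9 and 11.2 in control and 24.7 and 18.2 in knockout.

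Inside NFE2L1, a region at chr17:48056015-48056801, 7627 bp downstream of the start, was present in both knockout lists (folds 11.7 and 5.48) and in neither control list. A second one, weaker, lay at chr17:48045865-48046167 on the COPZ2 side (3.40 and 3.78). Another region inside the gene, at chr17:48055035-48055774, was in knockout replicate 1 alone (7.26). No MYRF peak of either line lay on these regions.

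PSMC5 had the largest negative difference. Its window was covered over 7075 and 5499 bp in the control lists and 4062 and 4839 bp in the knockout lists, a log2 difference of -0.48 (SE 0.18, limma unadjusted p = 0.0496, adjusted p = 0.838). A larger negative difference was found in 8.52% of genes. Most of it lay away from PSMC5: with the gene span extended by 2 kb only, the difference was -0.09. Without control replicate 1 it was -0.30. The peak at its own start was strong in every list, with folds of 27.7 and 25.5 in the control and 25.2 and 21.8 in the knockout lists. DDX42, FTSJ3 and SMARCD2 share the wider window.

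PSMA2, an alpha-ring subunit, was the other member with an unadjusted p under 0.05. It had 2559 and 2361 bp in the control lists and 3263 and 3064 bp in the knockout lists (log2 difference 0.35, SE 0.13, limma unadjusted p = 0.0494, adjusted p = 0.838). PSMB5, with MYRF on its promoter, had 2600 and 2427 bp in the control lists and 2127 and 2334 bp in the knockout lists. The clones did not overlap, but the log2 difference of -0.17 (SE 0.14, limma unadjusted p = 0.293, adjusted p = 0.886) was near its error. All of that length was 1 peak per list at the start. PSMD1, with MYRF inside the gene, had 5844 and 2743 bp against 5752 and 4035 bp, so its clones overlapped widely. PSMC6 had 7167 and 7208 bp against 8968 and 6649 bp and overlapped too.

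Among the subunits next in size, PSMD11 had 2172 and 1541 bp in the control and 2257 and 2706 bp in the knockout lists (0.41, SE 0.22), and PSMD6 had 1210 and 531 bp against 977 and 1257 bp (0.41, SE 0.43). PSMD12 had 4242 and 4480 bp against 3844 and 3496 bp (-0.24, SE 0.12), and PSMD2, a scaffold of the regulatory particle, 4534 and 5354 bp against 4317 and 4344 bp (-0.18, SE 0.13). Adjusted p-values of these 4 were 0.856 or more in limma. By role, median log2 differences were -0.09 for alpha, 0.08 for beta, -0.08 for immunoproteasome, 0.09 for ATPase, 0.07 for other regulatory and -0.12 for activator subunits. All classes of several genes except the immunoproteasome had members on both sides of 0. The 3 immunoproteasome genes lay between -0.12 and -0.04, but with lists scaled 2 of them, PSMB9 (0.03) and PSMB10 (0.07), were above 0. Scaling also turned the alpha median to 0.03.

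**Figure D4:**
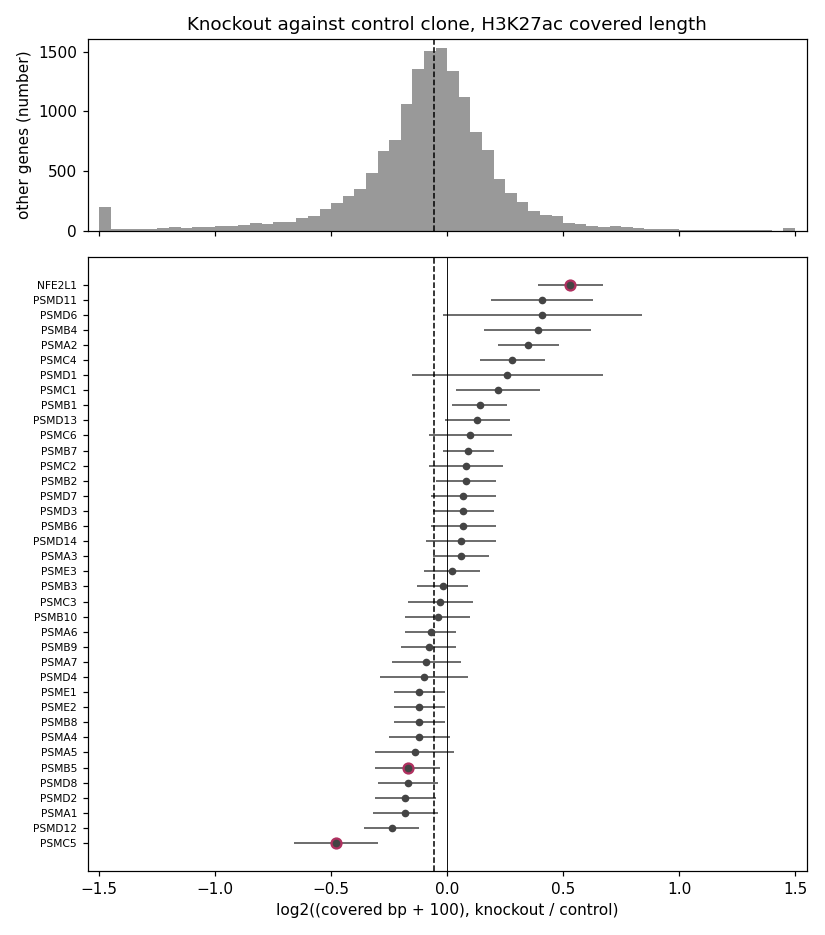
Upper panel, number of other genes by log2 difference in H3K27ac covered length (knockout minus control, values beyond 1.5 gathered in the end bins). Lower panel, the 38 members with bars of 1 SE, in order. NFE2L1 (0.53) and PSMC5 (-0.48) are the extremes, PSMB5 is also marked, and the dashed line is the median of other genes (-0.059).

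Single H3K27ac regions were also scored as present or absent. Peaks of the 4 lists merged into 134465 regions, of which 170 touched a member window. Of these 170, 57.6% were in all 4 lists, against 40.2% of all regions. Regions in both knockout lists and neither control list numbered 8, or 4.71%, against 1.7% of all. Regions in both control lists and neither knockout list numbered 1, or 0.588%, against 3.51% of all. All regions were counted wherever they lay, with no limit to gene windows. Every member window had H3K27ac in both control lists. The shares are therefore of unlike sets, and they were not tested against each other. The 8 lay at PSMD1 (3), NFE2L1 (2), PSMB7, PSMD6 and PSMD11, and the 1 upstream of PSMD12, nearest to PITPNC1. Apart from the region inside NFE2L1, they were weak, with folds of 5.21 or less. No region at a member's start was among the 9.

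Other genes of the pathway were looked at in the same way. Of 14 assembly factors and regulators, 13 were in the tested set (USP14 was not), and 9 of 9 genes of the NFE2L1 pathway were. None passed the adjusted threshold in H3K27ac and none had an unadjusted p under 0.05. Both knockout lists were above both control lists in 1 of the 13 (7.69%) and 1 of the 9 (11.1%), against 11.0% of all genes. They were below in 3 of the 13 (23.1%) and 1 of the 9 (11.1%), against 25.2%. SEM1, a small subunit of the regulatory particle, came nearest, with 1225 and 1328 bp in the control lists and 1799 and 1712 bp in the knockout lists (0.43, SE 0.16, limma adjusted p = 0.84).

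FOS peaks of both lists lay near 4 of the 13 (30.8%) and 6 of the 9 (66.7%), against 53.7% of other genes. MYRF peaks of both replicates lay near 1 of the 13 (7.69%) in each line. Of the 9, 2 (22.2%) had one in CFPAC1 and 3 (33.3%) in HPAF2, where 10.8% and 10.2% of other genes did. ADRM1, a ubiquitin receptor of the proteasome, had one inside the gene in both lines (11.0 and 10.4 in CFPAC1, percentiles 90.4 and 88.5; 5.79 and 7.95 in HPAF2, percentiles 59.2 and 78.7), where the PSMB5 peaks had 56.9 and 69.5 in CFPAC1. MAFK, a small MAF partner, had a weak one in both lines (3.51 and 4.32, 4.44 and 5.35), and its relative MAFF one in both CFPAC1 lists (7.36 and 6.58). SQSTM1, which carries ubiquitin-tagged cargo to autophagy, had one in both HPAF2 lists (10.8 and 9.49). At NFE2L2, the relative of NFE2L1 that answers oxidative stress, both HPAF2 lists had a peak at -222 and -376 bp from the start (4.46 and 6.17).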

How the data were processed

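The authors made 1 peak list per library with MACS2 2.1.0.20150731, and the notes also name SAMtools, Bowtie2 2.2.6 and Trimmomatic 0.38, with GRCh38 (hg38) as the build, per the submitters' processing notes. The control used for CFPAC1 peaks is not given in the sources used here. Each deposited peak has a fold enrichment at its summit (a ratio), a -log10 p and -log10 q, and a score (10 times the -log10 q). Folds depend on the library, so peaks were ranked by fold within a list only, and lists were compared by presence and covered length. The HPAF2 input sample was not analysed here.

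Gene spans and promoters came from RefSeq GRCh38.p14. A MYRF or FOS peak counted when a replicate 1 and a replicate 2 peak, both with summits in the window, overlapped by at least 1 bp. H3K27ac covered length was the union of peaks with a summit in the window, clipped to it. limma 3.58.1 (R 4.3.3, trend) compared the clones with Benjamini-Hochberg adjustment over all genes, and was checked on simulated data. Python 3.11.15, numpy 2.4.6, pandas 2.3.3 and matplotlib 3.10.9 did the rest.

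Values were named for NFE2L1, members with MYRF or FOS peaks in both lists, the 3 largest differences each way and the extreme start peaks. PSMA2, PSMB10, PSMC1, PSMD7, PSME2, the single-list peaks and SEM1 were named after their values were seen. The members, lists and tests were chosen with earlier results of these data known, so no list was tested. Alternatives changed the window, overlap, -log10 q, offset, scaling, gene filter and replicates.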

Additional observations from a re-analysis of the deposited data

How the results depend on the processing

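Depth is unknown and each group has 2 lists, so absence of a peak may be lack of depth. Members with a MYRF peak in CFPAC1 numbered 1 with windows of 10 kb around the start, 1 with overlap of at least 50% of both peaks (PSMB5), 0 with a -log10 q of at least 10, and 6 to 8 (15.8% to 21.1%) in a single list (without replicate 1 or 2), where 15.0% to 16.6% of other genes had one, so that the lower share of members was not seen there. Around the start 4.99% of other genes had one in CFPAC1, and with the 50% overlap 10.1%. In HPAF2 members numbered 0 with the span extended 2 kb (8.6% of other genes) and 0 with the stricter q. In a single HPAF2 list they numbered 1 to 2 (2.63% to 5.26%), against 13.4% to 15.3%. Members with a FOS peak numbered 9 (23.7%) with the stricter q. In a single list they numbered 19 to 23 (50.0% to 60.5%), against 56.4% to 63.6%. With the span extended 2 kb, FOS had 34.2% of members against 46.3%. Within 10 kb of the start the order was the opposite, 13 of 33 members (39.4%) against 32.8%. For the stricter q the shares of other genes were 4.58% and 4.74% for MYRF and 30.8% for FOS.

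No gene passed the adjusted threshold in H3K27ac under any of the 13 other settings of the limma fit, where the lowest adjusted p ran from 0.293 to 0.998 and genes with an unadjusted p under 0.05 from 570 to 1510 (members 0 to 3). The median of members ran from -0.044 to 0.15 (0.15 with scaling). With 1 replicate left out it was -0.044 to 0.074. Same-numbered lists share only a number. The replicate block leaves each log2 difference as it was, so the median of members stayed at 0.038. With the block no call appeared, and 707 genes had an unadjusted p under 0.05. Deviations of same-numbered lists correlated at -0.15 over genes, and with crossed numbers, a setting added after seeing the data as was the background of genes no longer than the median member, 1273 genes had such a p and 0 passed.

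Of the 10 members with a log2 difference followed through these settings, NFE2L1, PSMA2, PSMB5 and PSMC5 kept their direction in all, but the sizes ran from 0.41 to 0.64, 0.13 to 0.46, -0.23 to -0.06 and -0.83 to -0.09 in that order. The clones did not overlap at these genes, so a changed offset, a replicate block or leaving out 1 list could not turn them. PSMC5 was at -0.27 with all overlapping peaks. Direction turned with the span extended 2 kb for PSMD12 (0.10) and PSMD2 (0.07), around the start for PSMD2 (0.07) and PSMD1 (-0.11), with the stricter q for PSMD11 (-0.07), PSMD6 (-1.78) and PSMD1 (-0.94), and with 1 replicate left out for PSMD6 (-0.12 to 0.94), PSMD1 (-0.27 to 0.79) and PSMC6 (-0.11 to 0.32). These turned without control replicate 2 for PSMD6 and PSMD1 and without knockout replicate 1 for PSMC6. The cause was not tested.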
